A study of Mus musculus with 9 samples.

Results

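Skeletal muscle genes were followed through 9 mammary tumours of the BlgCre-NeuKI mouse, 8 of them epithelial and 1 a sarcoma. The genes were chosen by name: Ckm, Myh4, Myh1, Mylpf and Tnnt3 for the contractile fibre, Myod1, Myog and Pax7 for the myogenic programme, Des for the muscle cytoskeleton, and Acta1, which was not analysed here. Thus 9 of the 10 genes named were analysed, among 18484 genes counted in each tumour. The names were picked with the levels of these tumours known, so the contrast of the sarcoma and of single tumours with the rest is given as a description, with no test.

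In BlgCre-NeuKI mice, Cre under the beta-lactoglobulin promoter, which is active mainly in luminal ER- cells of the mammary gland, removes a floxed STOP cassette in front of an activated rat Neu cDNA knocked into the endogenous Erbb2 locus. Both alleles were heterozygous on a mixed FVB and C57Bl6 background, and every tumour, the sarcoma included, came from such a mouse, so no tumour without the alleles stood as a control. The 5 high-amplified tumours were grouped in the paper by genomic qPCR of the Erbb2/Neu locus and were all adenocarcinomas of no special type, AC(NST). By droplet digital PCR the paper reports low Neu copy number for MS1213.1 and MS1218.2. Its exome data showed amplification in MS1213.1 and not in MS1218.2. Virgin mice gave MS1163.1, MS1163.2 and MS1213.1, and parous mice gave MS1155.3 and MS1218.2. Parous mice also gave the 3 tumours of the not/low-amplified group, MS1349.1 and MS1210.1 being metaplastic adenosquamous carcinomas (ASQC) and MS1166.1 an AC(NST). The sarcoma, MS1156.1, came from a parous mouse and was labelled with no or low amplification. MS1163.1 and MS1163.2 carried the number of the same mouse, the labels gave no ages, and amplification, parity and histotype were partly confounded. Each tumour was a snap-frozen piece of tissue sequenced as 1 library.

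Skeletal muscle fibres are multinucleated cells packed with sarcomeres, in which myosin filaments pull on actin filaments under the control of the troponin complex. Fast fibres use the myosin heavy chains Myh4 (type 2B), Myh1 (type 2X) and Myh2 (type 2A), slow fibres use Myh7, and embryonic and perinatal muscle use Myh3 and Myh8. Muscle cells arise from precursors marked by Pax3 or Pax7, are committed by Myf5 and Myod1, and fuse and differentiate under Myog, whereas Myf6 is the factor of the family that stays prominent in mature fibres. The sheet muscle of the skin and the body wall lies close to the mammary glands of the mouse.

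Depth ranged from 12501225 reads on genes in MS1163.2 to 23912429 in MS1349.1, with 13058738 in the sarcoma. Levels are given as normalized counts, that is, reads divided by a median-of-ratios size factor computed over the 9 tumours. A count of 0 allows up to 3 reads, counting error only. Epcam, an epithelial adhesion molecule, lay between 6854 and 15094 normalized counts in the 8 tumours labelled epithelial and at 51.1 in the sarcoma. The keratins Krt8 and Krt18 were 169 and 129 in the sarcoma against at least 7578 and 4012 in the epithelial tumours, and Cdh1, E-cadherin, 76.6 against at least 6542. The 7 epithelial markers together took 0.198% to 0.769% of reads in the 8 tumours and 0.00257% in the sarcoma.

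The fast-fibre genes were highest in the sarcoma, followed by MS1163.2 and, at a far lower level, by MS1166.1. Myh1, the type 2X heavy chain, stood at 33691 normalized counts in the sarcoma. Among the high-amplified tumours it was 680 in MS1163.2, 7.44 in MS1155.3, 6.15 in MS1218.2, 4.65 in MS1213.1 and 4.01 in MS1163.1, and among the not/low-amplified tumours 20.6 in MS1166.1, 1.41 in MS1349.1 and 1.35 in MS1210.1. The sarcoma was 12.37 above the median epithelial tumour on the log2(normalized count + 1) scale, against an SD of 2.64 among the 8 tumours, and 49.6-fold above MS1163.2. MS1163.2 was in turn 33.0-fold above the next epithelial tumour, MS1166.1, whereas its companion from the same mouse number, MS1163.1, was among the low tumours.

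Myh4, the type 2B heavy chain of the fastest fibres, reached 4342 normalized counts in the sarcoma. It was 1603 in MS1163.2, 17.4 in MS1155.3 and 73.3 in MS1166.1, with 0 reads in MS1213.1, MS1163.1, MS1218.2, MS1210.1 and MS1349.1. The sarcoma thus exceeded MS1163.2 by only 2.71-fold for Myh4, and MS1163.2 exceeded MS1166.1 by 21.9-fold.

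Mylpf, the regulatory light chain of fast myosin, was 1736 normalized counts in the sarcoma. In the high-amplified tumours it was 274 in MS1163.2, 7.45 in MS1213.1, 6.20 in MS1155.3, 4.39 in MS1218.2 and 4.01 in MS1163.1, and in the not/low-amplified group it was 14.9 in MS1166.1, 7.72 in MS1349.1 and 7.42 in MS1210.1. The sarcoma lay 7.69 above the epithelial median on the log2 scale (SD of the 8 tumours 1.88), and apart from MS1163.2 the epithelial tumours stayed within 4.01 to 14.9.

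Tnnt3, the fast troponin T that ties the troponin complex to tropomyosin, was 2074 normalized counts in the sarcoma and 236 in MS1163.2. Lower down it was 40.1 in MS1166.1, 7.02 in MS1349.1, 6.52 in MS1213.1, 5.27 in MS1218.2, 3.72 in MS1155.3, 3.01 in MS1163.1 and 2.70 in MS1210.1. The order of the first 3 tumours was the same as for Mylpf, and the sarcoma lay 8.24 above the epithelial median (log2 scale, SD 2.09).

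Ckm, the muscle creatine kinase that restores ATP from phosphocreatine, was 4490.2 normalized counts in the sarcoma and 348 in MS1163.2. Its other values were 68.7 in MS1166.1, 11.2 in MS1155.3, 5.58 in MS1213.1, 3.01 in MS1163.1, 1.76 in MS1218.2, 0.702 in MS1349.1 and 0.674 in MS1210.1. Both ASQC tumours held 1 read each, and the sarcoma was 9.77 above the epithelial median (log2 scale, SD 2.75). An antisense gene overlaps 451 bases of Ckm, 515 bases of Myh1 and 220 bases of Des. Since the strand setting of the counting is not given in the sources used here, reads from either strand cannot be told apart in those stretches.

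**Figure D1:**
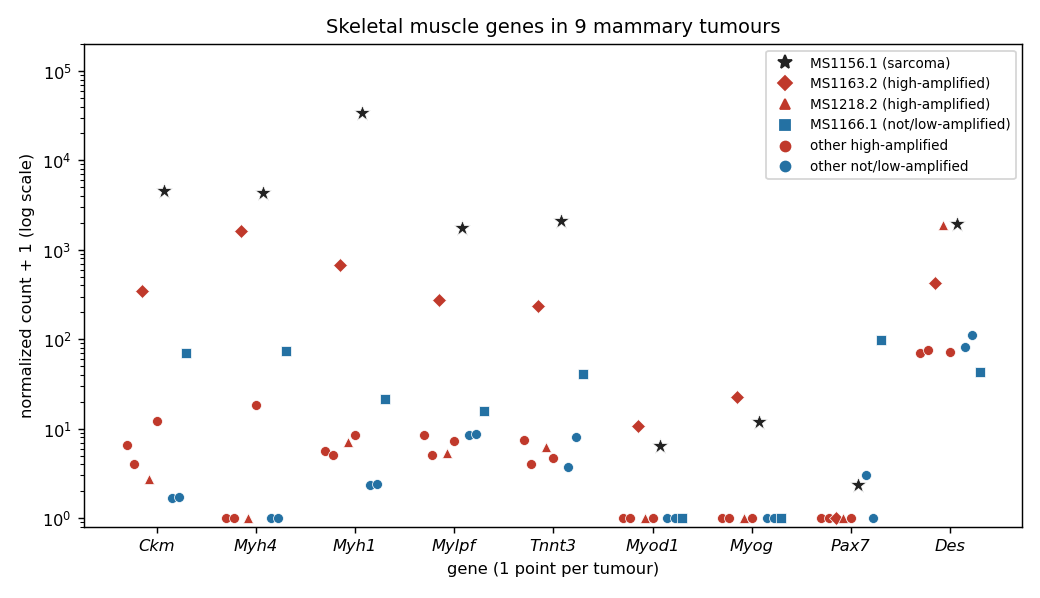
Normalized count plus 1 on a log scale for each muscle gene, 1 point per tumour, with the sarcoma as a star, MS1163.2 as a diamond, MS1218.2 as a triangle and MS1166.1 as a square. The star leads by 2.71-fold to 49.6-fold over the diamond in the 5 fibre genes on the left and lies under the diamond for Myod1 and Myog, while Pax7 is highest in MS1166.1 at 97.3.

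Levels of different genes were compared per kilobase of exon. In the sarcoma, Myh1 ranked 42 of 18420 genes with 5303 normalized counts per kilobase. Mylpf followed at 1634 (rank 208), Ckm at 1541 (rank 226), Tnnt3 at 1310 (rank 286), Myh4 at 722 (rank 675) and Des at 520.3 (rank 1131). Far down the same scale stood Myog with 7.19 (rank 12695), Myod1 with 2.89 (rank 13668) and Pax7 with 0.229 (rank 15430). Other factors of the programme stood higher, with Mef2c at 477 (rank 1295), Myf6 at 97.9 (rank 7121) and Pax3 at 66.5 (rank 8624).

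A wider list of fast-fibre genes, of which 31 were analysed, moved with them for the most part. It took 1.59% of all reads in the sarcoma (Wilson 95% interval 1.58 to 1.60, counting error only), 0.214% in MS1163.2 (0.212 to 0.217), 0.0126% in MS1166.1 and 0.00217% to 0.00612% in the other 6 tumours. The giant sarcomeric spring protein titin, Ttn, made up 61.1% of the list's reads in the sarcoma and 70.9% in MS1163.2. All 31 genes had at least 10 reads in the sarcoma, 29 did so in MS1163.2, 15 in MS1166.1 and 8 to 12 in the others. Not every gene of the list was raised in MS1163.2. Mb was 63.5 normalized counts there against 545 in MS1218.2, and Tmod4 was 43.2 against 88.4 in MS1213.1.

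In the sarcoma, 29 of the 31 fast-fibre genes, and 5 of the 8 named genes that reached 10 normalized counts in some tumour, were more than 2-fold above every epithelial tumour, beside 9.93% of all 15485 genes that reached that level. In MS1163.2, 24 of 29 genes of the list and 6 of 8 named genes were more than 2-fold above each other epithelial tumour, beside 1.34% of 15107 genes. Both conditions were met by 23 genes of the list, beside 88 among all 18484 genes. The median of the list lay 7.94 above the epithelial median in the sarcoma on the log2 scale, against 0.0011 over all genes, and 5.24 above the median of the other 7 epithelial tumours in MS1163.2, against 0.021 over all genes. Since such genes were named from these values, the counts describe the tumours and are no evidence of their own. In a bulk sample, fewer cells of a type and less RNA per cell cannot be told apart.

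Among the most abundant genes of the list, Ttn reached 170589 normalized counts in the sarcoma and 22798 in MS1163.2, against 57.3 to 412 in the other 7 tumours. Nebulin, Neb, the ruler of the thin filament, was 19773 and 2203 in those tumours against 8.09 to 75.7. Atp2a1, the calcium pump of fast sarcoplasmic reticulum, was 12426 and 617 against 2.11 to 128. MS1166.1 was the highest of the other 7 tumours for Ttn and Atp2a1, and it was the highest of all 9 for Mybpc2, the fast myosin-binding protein C, with 867 normalized counts against 773 in the sarcoma and 233 in MS1163.2.

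**Figure D2:**
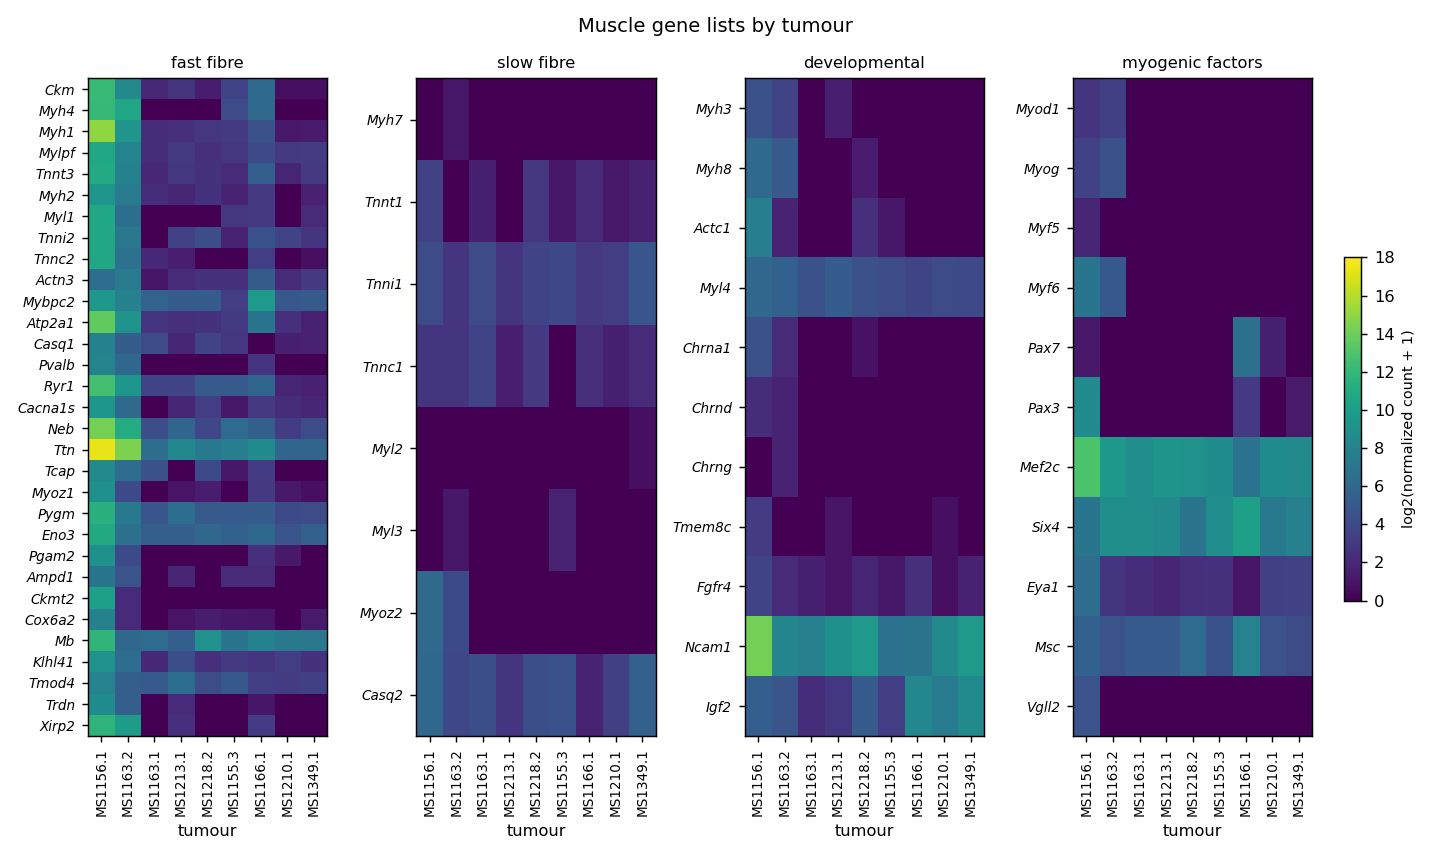
Heat maps of log2(normalized count + 1) for the fast-fibre, slow-fibre, developmental and myogenic factor lists, with genes as rows and the 9 tumours as columns. The fast-fibre panel is bright in the first column (sarcoma) and the second (MS1163.2), whereas in the slow-fibre panel no more than 73.9 normalized counts are reached in any tumour.

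The makeup of the fast myosins differed between the sarcoma and the other tumours with muscle reads. Of the reads on Myh1, Myh4 and Myh2, Myh1 took 87.1% in the sarcoma (Wilson 95% interval 86.7 to 87.4, 28784 reads), 27.8% in MS1163.2 (25.9 to 29.8, 2040 reads) and 20.5% in MS1166.1 (13.3 to 30.03, 88 reads). Myh4 took 11.2% in the sarcoma, 65.5% in MS1163.2 (63.4 to 67.6) and 72.7% in MS1166.1 (62.6 to 80.9). Myh2, the type 2A chain, took 1.71%, 6.67% and 6.82% in the same order. The sarcoma was therefore led by the 2X chain, and MS1163.2, MS1166.1 and MS1155.3 by the 2B chain, and the intervals of the sarcoma and MS1163.2 did not overlap for any of the 3 genes. In MS1155.3, with 22 such reads, Myh4 took 63.6% and Myh1 27.3%, and the 5 tumours with 13 reads or fewer held no Myh4 read. These intervals cover counting error and not the spread between tumours. Exact 76-base stretches shared with another myosin heavy chain transcript made up 16.3% of Myh1, 9.38% of Myh4 and 16.0% of Myh2, and only uniquely placed reads had been kept.

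**Figure D3:**
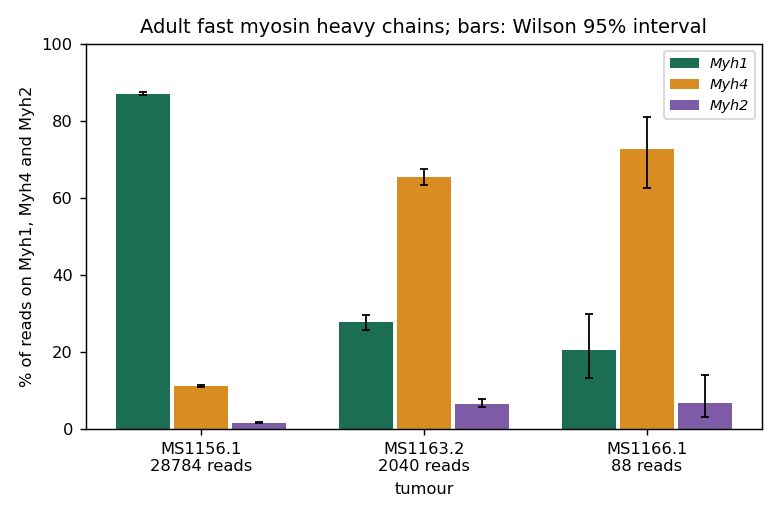
Share of reads on Myh1, Myh4 and Myh2 in percent for the sarcoma, MS1163.2 and MS1166.1, with bars from 0 and Wilson 95% intervals for counting error. Myh1 is the tallest bar in the sarcoma at 87.1%, and Myh4 is the tallest in MS1163.2 at 65.5% and in MS1166.1 at 72.7%.

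Myh1 (chromosome 11, 67200052 to 67224575, plus strand) and Myh4 (chromosome 11, 67238029 to 67260446, plus strand) are neighbours, while Myog lies on chromosome 1 at 134289989 to 134292548, also on the plus strand (GRCm38, GENCODE M21). Their promoters, 250 bases up to the RefSeq start, are shown because the proportion of these myosins was not the same in all tumours. Myog was added as a factor with reads beside them, although Myod1 and Myf6 had such reads too. The sequences are from RefSeq on GRCm38.p6 and the matches were searched on both strands. Capitals mark matches to the E-box CANNTG, to the MEF2 motif, to the CArG box and to TATAAA.
Myh1 (chr11:67199852-67200101, plus strand): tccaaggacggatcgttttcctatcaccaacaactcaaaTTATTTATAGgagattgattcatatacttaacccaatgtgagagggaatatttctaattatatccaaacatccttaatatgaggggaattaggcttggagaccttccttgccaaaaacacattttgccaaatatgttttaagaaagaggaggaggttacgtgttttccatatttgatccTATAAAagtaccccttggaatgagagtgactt
Myh4 (chr11:67237562-67237811, plus strand): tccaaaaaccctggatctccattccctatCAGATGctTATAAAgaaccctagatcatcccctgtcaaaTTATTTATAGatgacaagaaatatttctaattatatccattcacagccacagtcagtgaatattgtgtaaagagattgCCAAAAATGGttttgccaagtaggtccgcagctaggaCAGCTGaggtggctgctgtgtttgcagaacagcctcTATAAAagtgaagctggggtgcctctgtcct
Myog (chr1:134289754-134290003, plus strand): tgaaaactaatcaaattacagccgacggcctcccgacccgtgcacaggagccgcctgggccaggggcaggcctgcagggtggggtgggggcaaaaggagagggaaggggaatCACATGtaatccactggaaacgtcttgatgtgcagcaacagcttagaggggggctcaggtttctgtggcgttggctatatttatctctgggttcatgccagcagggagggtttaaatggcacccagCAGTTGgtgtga

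The Myh1 and Myh4 promoters each held a MEF2 match, at 211 and 182 bases before the start, and TATAAA at 32 and 31 bases before it. A further TATAAA match on the other strand lay inside each MEF2 match, and Myh4 had one more at 213. Myh4 also held E-boxes at 221 and 67, the latter being CAGCTG, and a CArG box at 104. Myh1 held no match to the E-box letters in this window, and Myog held E-boxes at 138 and 12. Promoters were found for 7 of the 9 genes, and Tnnt3 and Myod1 are named only. An E-box occurred in 5 of the 7 against 66.0% of 27025 promoters of that length, CAGCTG in 4 against 12.8%, a MEF2 match in 2 against 3.01%, a CArG box in 1 against 1.40% and TATAAA in 2 against 13.0%. CAGCTG is one of the forms of CANNTG and is counted in both. These are matches of letters and not sites of binding.

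The ratio of the sarcoma to MS1163.2 was not the same for all fibre genes. Over the 31 genes its median was 8.998, with 24 genes over 5, and the exact 95% interval for counting error lay above that median in 13 genes and below it in 10. The widest gaps were in Ckmt2, Cox6a2 and Mb. Mb, the oxygen store myoglobin, had a ratio of 55.0 (41.9 to 73.6). In MS1163.2 Mb was 63.5 normalized counts, within the 41.0 to 545 of the other epithelial tumours. Its ratio therefore sets the sarcoma against a level that other epithelial tumours also had. Ckmt2, the mitochondrial creatine kinase of muscle, had 318.9 (109 to 1549) on 853 reads against 3, and Cox6a2, the muscle form of a cytochrome oxidase subunit, had 62.4 (20.999 to 306) on 167 reads against 3. These 3 genes were picked out after their values were seen.

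At the other end, Actn3, the alpha-actinin of fast fibres, was the only gene of the list with the whole interval under 1, at 0.507 (0.373 to 0.683). Pvalb, the calcium buffer parvalbumin, had a ratio of 3.93 (2.90 to 5.38), Myh4 2.71 (2.54 to 2.89) and Xirp2, a protein of the intercalated disc and the muscle junction, 3.42 (3.15 to 3.71). Myh1 at 49.6 (45.6 to 54.0), Ckm at 12.9, Tnnt3 at 8.78 and Mylpf at 6.32 lay between. The fibre genes in the sarcoma were therefore not those of MS1163.2 multiplied by 1 factor. With 1 tumour on each side, the ratios compare those libraries only.

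**Figure D4:**
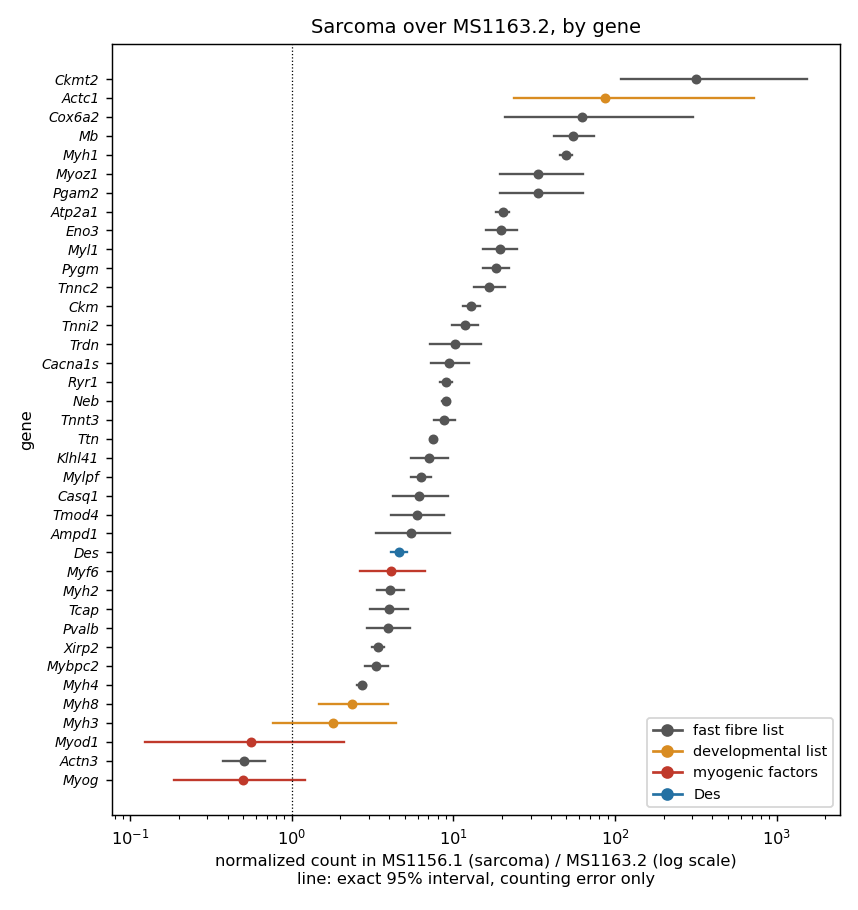
Ratio of the normalized count in the sarcoma to that in MS1163.2 on a log scale, 1 row per gene, with exact 95% intervals for counting error. The fast-fibre genes run from 0.507 for Actn3 to 318.9 for Ckmt2, while Myod1 and Myog lie under the dotted line at 1 with intervals that cross it.

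The factors that specify muscle cells served as the control of the fibre genes. Myod1, which commits cells to the muscle lineage, had 4 reads in the sarcoma, 8 in MS1163.2 and 0 in the other 7 tumours. Myog, which drives differentiation, had 8 reads in the sarcoma, 18 in MS1163.2 and 0 in the other 7. In normalized counts, Myod1 was 5.38 and 9.59 and Myog 10.8 and 21.6 in these tumours. MS1163.2 was thus the higher of the pair for both factors, although the ratios of 0.561 (0.124 to 2.09) and 0.498 (0.188 to 1.20) had intervals that included 1.

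Set against the mean of the 5 fibre genes per kilobase of exon in the same tumour, Myod1 and Myog together stood at 0.480% (0.248 to 0.838) in the sarcoma and at 10.9% (7.10 to 15.9) in MS1163.2. Myog alone was 0.342% (0.148 to 0.674) and 8.01% (4.75 to 12.7), and Myod1 alone 0.137% (0.0375 to 0.352) and 2.86% (1.23 to 5.64). The intervals of these tumours did not overlap for either factor or their sum. The sum was 0.174% and 4.96% on raw counts, and 1.08% and 26.04% against the whole fast-fibre list, so its size depends on the scale used. In MS1166.1 both were at 0, where 3 reads would be 14.7% of its fibre level for Myog and 11.8% for Myod1, so shares such as those of MS1163.2 were not detectable at this depth.

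Myf6, the factor of mature fibres, had 92 reads in the sarcoma, 25 in MS1163.2 and 0 elsewhere. It reached 4.66% of the fibre level in the sarcoma (3.75 to 5.71) and 13.2% in MS1163.2 (8.53 to 19.4), above Myod1 and Myog in both. In MS1163.2, however, the interval of Myog (4.75 to 12.7) overlapped that of Myf6. The ratio of sarcoma to MS1163.2 for Myf6, 4.13 (2.63 to 6.70), lay above 1, unlike those of Myod1 and Myog. Myf5, which marks early muscle precursors, had 2 reads in the sarcoma and 0 in the other 8 tumours.

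Pax7, the factor of satellite cells, the stem cells of adult muscle, followed another pattern. It had 85 reads in MS1166.1 (97.3 normalized counts), 3 in MS1210.1, 1 in the sarcoma and 0 in the other 6 tumours. In MS1166.1 it stood at 106% of the fibre level (84.7 to 131), whereas in the sarcoma it stood at 0.0109%. The same tumour was the highest of the 9 for Six4 (1149 normalized counts) and Msc (248), further regulators known from muscle precursors and from other tissues.

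Pax3, which marks embryonic muscle precursors and also the neural crest, had 306 reads in the sarcoma, 6 in MS1166.1, 2 in MS1349.1 and 0 in the other 6. Mef2c, a partner of the myogenic factors that many cell types use, was 7489 normalized counts in the sarcoma, against 112 to 766 in the epithelial tumours. Vgll2, a cofactor of muscle genes, had 17 reads in the sarcoma and 0 in the other 8, and Eya1, a cofactor of homeobox proteins, was 84.7 normalized counts there against 1.14 to 10.5. Of the 9 factors that reached 10 normalized counts in some tumour, 5 were more than 2-fold above every epithelial tumour in the sarcoma, beside 9.93% of all genes. In MS1163.2, 2 of 7 at that level were more than 2-fold above each other epithelial tumour, beside 1.34% of all genes. The sarcoma thus led for Pax3, Mef2c, Myf6, Eya1 and Vgll2, and not for Myod1, Myog, Pax7, Six4 or Msc.

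Genes of developing and regenerating muscle were few in reads. Myh3, the embryonic heavy chain, had 16 reads in the sarcoma and 10 in MS1163.2, and Myh8, the perinatal chain, had 55 and 26. Actc1, the alpha-actin of heart and fetal muscle, was 208 normalized counts in the sarcoma and 0 to 4.39 elsewhere. Chrna1, the alpha subunit of the acetylcholine receptor, had 16 reads in the sarcoma and 3 in MS1163.2. Chrng, the fetal receptor subunit, had 0 reads in the sarcoma and 2 in MS1163.2, and Tmem8c, the fusion protein myomaker, was 8.07 normalized counts in the sarcoma and at most 0.931 elsewhere. Myl4, an embryonic light chain, was 59.2 in the sarcoma and 12.6 to 46.7 in the epithelial tumours. For comparison, Myh1 had 25061 reads in the sarcoma and 567 in MS1163.2.

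Ncam1, an adhesion molecule of fetal muscle, nerve and Schwann cells, stood apart with 19175 normalized counts in the sarcoma against 109 to 871 in the epithelial tumours. In MS1163.2 it was 295, within the range of the other epithelial tumours. Of the developmental list, 5 of 8 genes were more than 2-fold above every epithelial tumour in the sarcoma (9.93% of all genes), and 2 of 5 were more than 2-fold above each other epithelial tumour in MS1163.2 (1.34%).

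Slow-fibre and cardiac genes did not follow the fast ones. Myh7, the slow heavy chain, had 0 reads in the sarcoma and 1.20 normalized counts in MS1163.2. Myl2 was 0 in both tumours, and Myl3 was 0 in the sarcoma and 1.20 in MS1163.2. The exception was Myoz2, a protein of the Z-disc of slow fibres, with 73.9 and 15.6 normalized counts in them and 0 in the other 7 tumours. Casq2, the slow and cardiac calsequestrin, was 67.2 in the sarcoma and 2.29 to 45.7 in the epithelial tumours, Tnni1 17.5 and 5.58 to 27.4, Tnnc1 5.38 and 0 to 11.04, and Tnnt1 10.8 and 0 to 6.15. Of the cardiac list, Tnnt2 was 0 in the sarcoma and 68.9 to 170 in the epithelial tumours, and Tnni3 was 1.34 and 3.37 to 85.6, so these genes were lower in the tumour richest in fast-fibre reads. Myh6, Mybpc3, Nppa and Ryr2 stayed at 9.59 normalized counts or fewer in all 9 tumours.

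Des, desmin, is the intermediate filament of skeletal, cardiac and smooth muscle. It was 1953 normalized counts in the sarcoma and 1896 in MS1218.2. In the remaining tumours it was 426 in MS1163.2, 111 in MS1349.1, 80.9 in MS1210.1, 75.3 in MS1163.1, 70.7 in MS1155.3, 69.8 in MS1213.1 and 42.4 in MS1166.1. The sarcoma was 4.63 above the epithelial median on the log2 scale (SD 1.81) but only 1.03-fold above MS1218.2, in which Ckm was 1.76 and Myh4 had 0 reads.

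In MS1218.2 smooth muscle genes were high in place of the fibre genes. Acta2, the smooth muscle actin also made by myofibroblasts and myoepithelial cells, was 10522 normalized counts there, 280 in the sarcoma and 461 to 1780 in the other epithelial tumours. Tagln was 5223 in MS1218.2 against 403 to 1119, and 457 in the sarcoma. The paper estimated tumour purity from the RNA-seq data and names MS1218.2 as the only sample that did not exceed its stated level. The part of purity in the levels of MS1218.2 was not tested. None of the 10 smooth muscle genes was more than 2-fold above every epithelial tumour in the sarcoma, beside 9.93% of all genes. The list's median there lay 0.84 below the epithelial median. Mylk and Smtn were 1413 and 3064 in the sarcoma against 144 to 2552 and 597 to 2659.

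Among the proteins that link the sarcomere to the cytoskeleton, the desmin partner synemin, Synm, was 4290 normalized counts in the sarcoma against 71.2 to 432, and filamin C, Flnc, was 5977 against 81.3 to 1420. Vim, the filament of mesenchymal cells, was 14046 in the sarcoma and 30922 in MS1218.2, and Nes, the filament nestin, was 1705 in the sarcoma and 590 to 7378 in the epithelial tumours. Cryab, a chaperone of filaments, was 2082 in the sarcoma and 143 to 1963 in the epithelial tumours. Synm and Flnc were the 2 of 7 such genes that were more than 2-fold above every epithelial tumour in the sarcoma, beside 9.93% of all genes.

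The comparisons of the design among the 8 epithelial tumours asked whether muscle genes followed amplification, parity or histotype. They used edgeR's quasi-likelihood test on all genes with at least 10 reads in at least 3 tumours, and 4 of the 9 muscle genes passed this filter (Myh4, Mylpf, Tnnt3 and Des). Of 14007 genes, 129 (0.921%) differed between high-amplified and not/low-amplified tumours at an adjusted p under 0.05 and more than 2-fold, and no muscle gene was among them. Des averaged 507 ± 791 normalized counts (SD, n = 5) with high amplification and 78.1 ± 34.4 (SD, n = 3) with none or low, with a log2 fold change of 2.72 (SE 1.24) and an adjusted p of 0.230 by edgeR. By DESeq2 its unadjusted p was 0.0071 and its adjusted p 0.0572. For Mylpf the means were 59.3 ± 120.3 and 10.01 ± 4.22, with a log2 fold change of 2.56 (SE 1.60, edgeR adjusted p = 0.362). Without MS1163.2 it was -0.80, so the direction for Mylpf rested on that tumour. Myh4 and Tnnt3 had log2 fold changes of 3.79 (SE 2.88) and 1.64 (SE 1.65), with edgeR adjusted p of 0.452 and 0.576. Each had at least 10 reads in only 3 tumours, MS1163.2 among them. Both genes therefore passed the filter only with each of their 3 tumours kept, and were not tested without MS1163.2. With parity as a covariate, Myh4, Mylpf and Tnnt3 turned to -1.45, -0.86 and -1.76. None of the 4 reached an unadjusted p under 0.05 in the main edgeR fit. With the tumours of the same mouse number summed, Des had an unadjusted edgeR p of 0.0466 (adjusted p 0.236). With no filter on low counts its unadjusted edgeR p was 0.0424 (adjusted p 0.231), and without MS1163.2 it was 0.0723 (adjusted p 0.267). DESeq2 called 1591 genes and neither of the 2 muscle genes to which it gave an adjusted p. The differences were smaller than the spread within the high-amplified group, in which MS1163.2 or MS1218.2 carried the mean.

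Between parous and virgin tumours edgeR called 0 genes (0.0% of 14007), with 1984 at an unadjusted p under 0.05 and 511 called by DESeq2. DESeq2 gave no muscle gene an adjusted p in that comparison, so none could be called by it. By edgeR, the log2 fold changes of the 4 muscle genes ran from -4.92 for Myh4 to 1.26 for Des, with Mylpf alone at an unadjusted p under 0.05 and a smallest edgeR adjusted p of 0.305. Mylpf was -3.52 for parity and 0.46 without MS1163.2, so its direction rested on that tumour. Between ASQC and AC(NST) tumours edgeR called 33 genes (0.236%) and no muscle gene, with 1221 genes at an unadjusted p under 0.05 and a smallest edgeR adjusted p of 0.605 among the muscle genes. Myh4 had 0 reads in both ASQC tumours. DESeq2 called 518 genes in that comparison, and Ckm was one of them (adjusted p = 0.0118), with 1 read in each ASQC tumour and 2 to 290 in the AC(NST) tumours. Most of the AC(NST) reads were in MS1163.2 (290) and MS1166.1 (60). Ckm did not pass the main filter, and edgeR with no filter on low counts did not call it (unadjusted p 0.0266, adjusted p 0.433).

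The fast-fibre list had 16 genes in these tests and none was called in any of the 3 comparisons by edgeR. Of the 16, 15 were on the side of the high-amplified tumours (median log2 fold change 2.04, against 0.025 over all genes), 2 on the side of parous tumours (median -2.41, against 0.096) and 0 on the side of ASQC (median -2.71, against -0.077). MS1163.2 was a high-amplified, virgin AC(NST) tumour, so it stood on the same side of all 3 comparisons.

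Of the 71 genes of all lists that were tested for amplification, 2 were called, beside 0.921% of all genes. Igf2, a growth factor of fetal tissue and regenerating muscle, was 4.01 to 35.1 normalized counts in the high-amplified and 178 to 363 in the not/low-amplified group, which gave a log2 fold change of -4.14 (SE 0.70, edgeR adjusted p = 0.0337). It was 40.3 in the sarcoma. S100b, a calcium-binding protein of Schwann cells and other glia, was 109.8 to 1039 in the high-amplified and 3.43 to 14.2 in the not/low-amplified group, with a log2 fold change of 5.63 (SE 1.05, edgeR adjusted p = 0.0433), and 3762 in the sarcoma. Each call was kept in 6 of 18 alternatives.

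Genes of the other cells that a piece of tissue could hold were set beside the muscle genes. Adipocyte markers took 0.0274% of reads in MS1163.2 and 0.0312% in MS1349.1, against 0.00136% to 0.0101% in the other 6 epithelial tumours and 0.0217% in the sarcoma. Adipoq, the adipocyte hormone adiponectin, was 234 normalized counts in MS1163.2, 154 in MS1349.1 and 8.07 in the sarcoma, and the sarcoma's reads of this list came largely from Lpl, a lipase that muscle also makes, at 3439. Plin1, which coats lipid droplets, was 254, 202 and 20.2 in the same order. Cfd was 915 in MS1163.2, 867 in MS1349.1 and 73.9 in the sarcoma, and Fabp4 1111, 932 and 246. MS1349.1 thus had fat markers like MS1163.2 with Ckm at 1 read and Myh4 at 0. In MS1163.2 the fat markers were high together with the fibre genes, and in the sarcoma Adipoq was within the range of the other epithelial tumours. Of the markers of brown fat, Ucp1 was at most 23.1 in any tumour and 4.03 in the sarcoma, Cidea and Elovl3 had 0 reads in the sarcoma, and the list took at most 0.000513% of reads.

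Schwann cell markers took 0.150% of reads in the sarcoma against 0.0135% to 0.0546% in the epithelial tumours. Mbp, a protein of myelin, was 14266 normalized counts there against 759 to 1628, and Sox10, a factor of neural crest and of mammary cells, 7820 against 641 to 6358. MS1163.2, with 0.0214%, did not stand out. Fibroblast markers took 3.35% of reads in the sarcoma and 2.24% in MS1218.2 against 0.164% to 0.751% in the others, with Dcn, decorin, at 23467 normalized counts in the sarcoma against 353 to 3002 and Col3a1 at 258607 against 7065 to 116589.8. The collagen genes Col1a2 at 168069 and Col1a1 at 123075 were also high in the sarcoma, the latter under the 132783 of MS1218.2. The sarcoma thus held more reads of muscle, Schwann and fibroblast genes at once. Whether the fibre reads came from muscle caught with the tissue or from the cells of the sarcoma itself cannot be told apart in 1 bulk library, and the part of the other cell types in them was not tested.

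**Figure D5:**
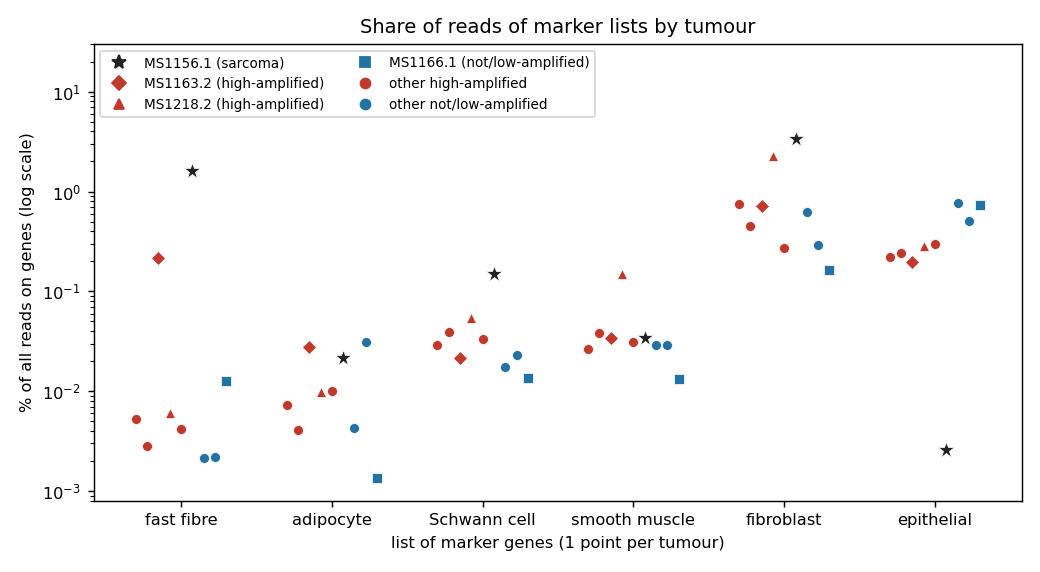
Share of all reads, in percent on a log scale, taken by 6 marker lists, 1 point per tumour, with the sarcoma as a star, MS1163.2 as a diamond, MS1218.2 as a triangle and MS1166.1 as a square. The sarcoma is highest for fast-fibre (1.59%), Schwann cell (0.150%) and fibroblast (3.35%) genes and lowest for epithelial genes (0.00257%), while MS1163.2 stands next to the highest for fast-fibre genes (0.214%) and for adipocyte genes (0.0274%).

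The genes outside the lists whose pattern was most like that of the 5 fibre genes were sought by Pearson correlation over the 9 tumours with the mean of their z-scored log2 values, among 15384 genes, as a description dominated by the sarcoma and MS1163.2. The 10 nearest were Lmod3 (0.993), Trim54 (0.987), Ppp1r3a (0.984), Mstn (0.983), Kcnj11 (0.981), Myom2 (0.979), Mypn (0.979), Klhl40 (0.969), Nckap5 (0.958) and Smyd1 (0.957). Mstn, which encodes myostatin, the secreted brake on muscle growth, had 23 reads in the sarcoma, 14 in MS1163.2 and 3 in MS1166.1, and Myom2, a protein of the M-band, had 1023, 85 and 7. Nckap5 was nearly as high in MS1163.2 as in the sarcoma, at 228 and 278 normalized counts. Lmod3 and Trim54 had 0 reads in each of the 6 tumours other than the sarcoma, MS1163.2 and MS1166.1.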

How the data were processed

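RNA-seq of 9 tumours was used, with 1 library each. Per the authors' methods, paired reads were aligned with STAR to mouse build 38 with at most 3 mismatches, only unique alignments were kept, and HTSeq-count gave the deposited counts per gene for all 9 tumours. The libraries were made strand-specific, and the strand option of the counting is not given in the sources used here. The deposited signal values of the 8 epithelial tumours are those counts divided by 1 DESeq2 size factor per tumour (0.776 to 1.42). The submitters' processing notes also name FastQC and Cufflinks. Only the counts were analysed further.

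Counts were divided by median-of-ratios factors over 9 tumours (0.744 to 1.48), with a pseudocount of 1 for log2 values. Exon lengths and positions came from GENCODE M21. The 3 comparisons of epithelial tumours used edgeR 4.0.16 (TMM, glmQLFit, glmQLFTest, Benjamini-Hochberg adjustment) under R 4.3.3, after a test on simulated data, and DESeq2 1.42.0 as an alternative. Python 3.11.15, numpy 2.4.6, pandas 2.3.3, scipy 1.17.1 and matplotlib 3.10.9 served for the rest. Intervals for shares are Wilson 95% intervals, and those for ratios and for factors against fibre genes are exact 95% intervals. They cover counting error only. Each tumour was a replicate, so p-values measure the spread between tumours. MS1163.1 and MS1163.2, with the same mouse number, counted as separate replicates except in the alternative that summed them.

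The muscle genes and the 12 lists, with 114 of 118 genes analysed, were chosen with earlier results of these data known. A few further genes are not reported here. Acta1, Cdh15, Nkx2-5 and Cox7a1 were not analysed here. The text names every muscle gene, the 4 most abundant genes of each list, the factors and developmental genes with at least 10 reads in some tumour, listed genes called in a comparison, and the 10 genes most like the fibre genes. Other genes, such as further members of the lists, were named after their values were seen.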

Additional observations from a re-analysis of the deposited data

Results flagged for a closer look

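Among the 5 high-amplified tumours, MS1163.2 lay far above the other 4 for 5 of the 8 muscle genes that had any spread there, by a rule on the gap to the nearest tumour on the log2(normalized count + 1) scale that chance meets in about 1 in 20 groups. In these tumours 16.5% of the 17886 genes with any spread had a tumour set apart, high or low, by the same rule, and 10.1% of the 14627 that reached 10 normalized counts. The muscle genes were named with these levels known, so their count is no evidence of its own. These genes share 1 tumour, so they are not independent of each other. Myh1 stood at 680 normalized counts in MS1163.2 with the next tumour at 7.44, Mylpf at 274 with the next at 7.45, and Tnnt3 at 236 with the next at 6.52. Myod1 at 9.59 and Myog at 21.6 stood against 0 in the other 4 tumours, where any value above 0 meets the rule, so the rate of 1 in 20 does not apply to them. Ckm, Myh4 and Des were not set apart by that rule, and Pax7 had 0 reads in all 5 tumours.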

How the results depend on the processing

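The number of genes called for amplification (129) was 229 with no filter on low counts, 1591 by DESeq2, 31 with the tumours of the same mouse number summed, 40 in AC(NST) tumours alone, 0 with parity as a covariate, 0 in parous tumours alone and 3 with the sarcoma among the not/low-amplified tumours. Leaving out each tumour gave 1 (without MS1210.1) to 1255 (without MS1218.2). For parity (0) it was 511 by DESeq2 and 0 to 147 (without MS1155.3) with each tumour left out. For histotype (33) it was 171 with no filter, 518 by DESeq2, 18 with the same mouse summed and 4 (without MS1349.1) to 84 (without MS1166.1). No muscle gene was called under any of these alternatives except 1, Ckm, for histotype by DESeq2. Not every muscle gene was tested in each of them. DESeq2 gave an adjusted p to 2 muscle genes for amplification and to none for parity. Myh4 and Tnnt3 were tested in 5 of the 8 fits with a tumour left out, in each comparison.

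For amplification, parity as a covariate turned Myh4 to -1.45, Mylpf to -0.86 and Tnnt3 to -1.76 on the log2 scale. Adding the sarcoma turned Myh4 to -1.77, Mylpf to -2.89, Tnnt3 to -3.38, Des to -0.061 and S100b to -1.31. Parous tumours alone turned Mylpf to -0.83. Without MS1163.2, Mylpf became -0.80 for amplification (range with each tumour left out -0.80 to 2.92), 0.46 for parity (-4.09 to 0.46) and 0.051 for histotype (-2.97 to 0.051). Without MS1218.2, Des became -1.30 for parity (-1.30 to 2.61). Igf2 kept its direction in 18 of 18 alternatives, with edgeR and DESeq2 adjusted p of 2.8e-07 to 0.329.

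The fast-fibre share of reads was 0.404% in the sarcoma and 0.0727% in MS1163.2 with the 100 most abundant genes left out, 0.505% and 0.0476% without Ttn and Neb, and 0.264% and 0.0210% for the 5 fibre genes alone. Myod1 and Myog together were 0.174% and 4.96% of the fibre level on raw counts, and 1.08% and 26.04% against the whole list. Of the 10 genes most like the fibre genes, 2 remained by Spearman correlation, and 4 (without MS1163.2) to 9 with each tumour left out. The median excess of the sarcoma over the epithelial tumours for the fibre genes was 9.41 to 10.13 with each tumour left out. The causes were not tested, apart from the fewer genes or tumours that an alternative leaves. No paired analysis was possible because the labels give no replicate numbers that the groups share. Low counts limit Myod1, Myog and Pax7, which rest on 85 reads or fewer in any tumour.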
